A study of Mus musculus with 10 samples.

Results

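The potassium channel genes of the mouse, whose symbols begin with Kcn, encode the pore subunits of potassium-selective channels and the auxiliary subunits that bind them. Members were taken as every row of the expression table whose Ensembl identifier maps to a protein-coding Kcn symbol in GENCODE M21, apart from 2 symbols that the rule leaves out. This gave 81 of 18444 genes. The annotation holds 94 protein-coding Kcn symbols, and the 11 without a row are not analysed here. Of the 81 members, 79 had a mean of at least 10 normalised read counts over the 10 libraries and were tested, and *Kcnj15* and *Kcnn4* were below that mean.

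Potassium channels let potassium leave the cell and so set the resting potential, end the action potential and limit repetitive firing. Each channel is built around a central pore made by pore-forming subunits. The families differ in what opens or closes that pore. Depolarisation opens it in *Kcna*, *Kcnb*, *Kcnc*, *Kcnd*, *Kcnh* and *Kcnq* channels, and internal calcium or sodium in *Kcnma*, *Kcnn* and *Kcnt* channels. G proteins, ATP or the potassium gradient control it in *Kcnj* channels, while *Kcnk* channels leak and respond to lipids and pH. Silent subunits (*Kcnf*, *Kcng*, *Kcns* and *Kcnv*) form no channel alone and modify the channels of the *Kcnb* family, and auxiliary subunits (*Kcnab*, *Kcne*, *Kcnip* and *Kcnmb*) change gating and traffic.

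Whole brain was taken from males of the C57BL/6N strain at postnatal day 3. The HT group held 5 mice heterozygous for *Arid1b*, which encodes a subunit of a chromatin remodelling complex, and the WT group held 5 wild-type mice. The HT mice carry 1 truncating *Arid1b* allele in every cell, which the methods of the study give as a deletion around exon 5 with an insertion of TT. It was made with a CRISPR nickase, and the mice were bred from HT males and WT females. Each mouse gave 1 library, and because litters are not given in the labels, the p-values measure the spread between these mice.

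The label was checked first on the edited gene. *Arid1b* (ENSMUSG00000069729, chr17:4994332-5347656, GRCm38) had normalised counts of 2372, 2230.2, 2253, 1505 and 2142 in HT 1 to 5 and 3386, 3155, 3597, 3429 and 3108 in WT 1 to 5. No HT library reached the lowest WT library, and the log2 fold change was -0.68 ± 0.11 (SE) with 10 libraries, with an exact permutation p of 0.00794, the smallest that 5 against 5 libraries allow. Without HT 4 it was -0.57. Its limma adjusted p was 0.390 with 10 libraries and 2.47e-04 without HT 4 (2.68e-06 to 1.00 over all alternatives). HT 4 stood apart from the other 9 libraries. Its limma sample weight was 0.171, against 0.858 to 1.52 elsewhere, and its deviations from the gene means had a Spearman correlation of -0.38 with transcript length across all genes, against -0.13 to 0.26 in the other libraries. Group counts, and the fold changes of genes described library by library, are therefore given with and without HT 4. The 10 neuronal markers were all expressed and summed to between 239024 and 247354 normalised counts in WT and between 224113 and 258317 in HT, lowest in HT 4, and the 5 of 10 genes of non-brain tissue with a row summed to between 96.2 and 265. In bulk tissue, fewer cells of a type and less RNA per cell cannot be told apart.

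Potassium channel transcripts differed widely in level. Per kilobase of transcript (the median length of a gene's protein-coding transcripts), the median WT level over the 81 members was 157 normalised counts. Among the most abundant were *Kcnip2*, a calcium-binding partner of *Kcnd* channels, with 1750.2 ± 131 per kb (SD, n = 5), *Kcnma1*, the pore of the large-conductance calcium-activated channel, with 1489 ± 137, and *Kcnd3*, an A-type channel, with 1049 ± 55.4. Among neighbours in this order, *Kcnip2* and *Kcnma1* overlapped in their WT libraries, while *Kcnd3* lay clear of both its neighbours. Only 6 of the pairs of neighbours did not overlap, so the order further down is loose. At the other end stood *Kcnj15* (1.97 ± 0.986), *Kcnmb1* (3.16 ± 1.48) and *Kcnn4* (3.59 ± 1.80).

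**Figure D1:**
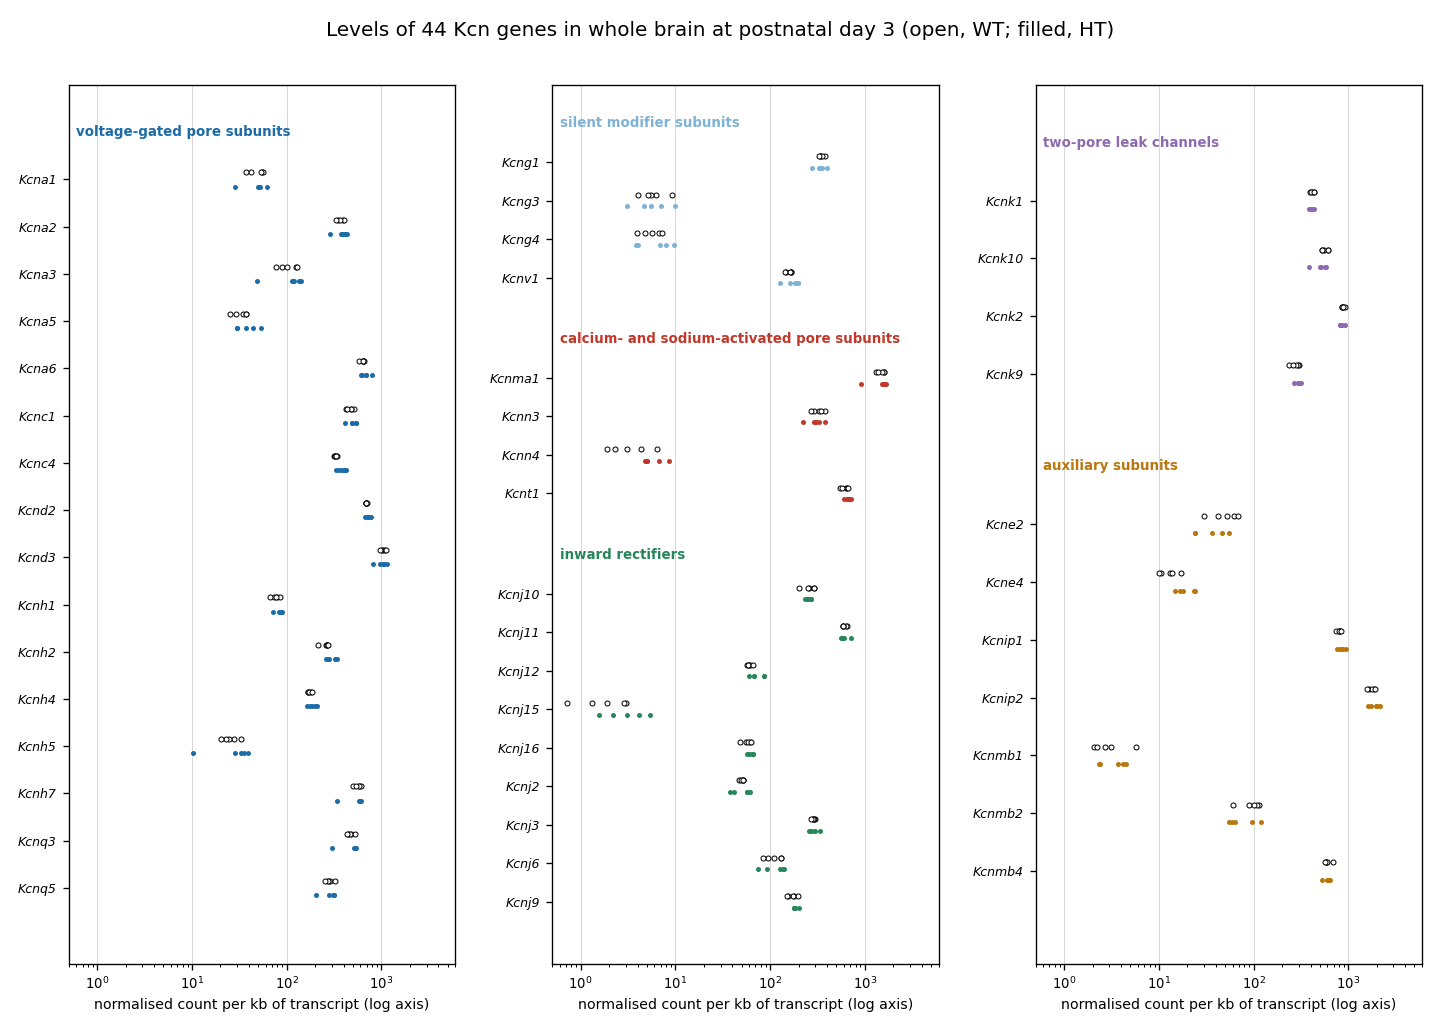
Normalised read counts per kb of transcript on a log axis for 44 of the Kcn genes named in the text, grouped by the role of the subunit. Open circles are the 5 WT libraries and filled circles the 5 HT libraries. *Kcnip2* is among the highest at 1750.2 per kb in WT and *Kcnj15* the lowest at 1.97, and for each gene that was tested the 2 sets of circles overlap.

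By normalised count the family was uneven. Of the 81 members, 24 had a WT mean of at least 1000 normalised counts, 38 lay between 100 and 1000, 17 between 10 and 100, and 2 below 10. *Kcnq3*, *Kcnma1*, *Kcnd2* and *Kcnk9* were among the highest by count, with WT means of 5554 ± 393, 5208 ± 481, 3561 ± 69.5 and 3364 ± 304 (SD, n = 5). Replicates were close: the median coefficient of variation of the members was 8.90% in WT and 12.9% in HT, against 8.40% and 12.2% over all genes. The length used matters for single ranks. *Kcnk9* moved from rank 28 to rank 2 when its coding sequence replaced its transcript length, and *Kcnj11* moved from rank 11 to rank 40 with the longest transcript. The genes named above as among the most abundant per kb moved down too. *Kcnip2*, *Kcnma1* and *Kcnd3* went from ranks 2, 3 and 4 to ranks 5, 9 and 12 with the longest transcript, and to 7, 11 and 9 with the coding sequence.

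The main comparison asked whether loss of 1 *Arid1b* allele altered potassium channel transcripts at postnatal day 3. No member changed past the threshold. With limma and 10 libraries, 0 of 79 members had an adjusted p under 0.05, where the percentage over all 17020 genes tested was 0, and the smallest adjusted p among the members was 1.00. At an unadjusted p under 0.05 there were 4 members, or 5.06%, against 3.41% of all genes. All 4 were higher in HT, where 1.47% of all genes had such a p, and 0 were lower (1.93% of all genes). The log2 fold change was above 0 for 46 members and below 0 for 33, so 58.2% were higher, against 46.4% of all genes, and the median was 0.029. Single libraries moved both figures: the count of 4 became 7 without HT 1, 12 without HT 4 and 2 without WT 1 or WT 4, and the median ran from 0.0087 without HT 2 to 0.090 without HT 4. The share of all genes at such a p rose to 8.38% without HT 4, and is not given without HT 1, WT 1 or WT 4. For 70 of the 79 members (88.6%, against 85.1% of all genes) the log2 fold change lay within 0.2 of 0. The median half-width of the 95% confidence intervals, which are not adjusted for the number of genes, was 0.22. For a typical member a smaller difference was not detectable with these mice, and the adjusted threshold asks for a larger one. *Arid1b* itself, with a log2 fold change of -0.68, had a limma adjusted p of 0.390 with 10 libraries. The HT and WT libraries were fully separate for 0 members (0.629% of all genes, 0.282% with HT above WT and 0.347% with HT below).

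**Figure D2:**
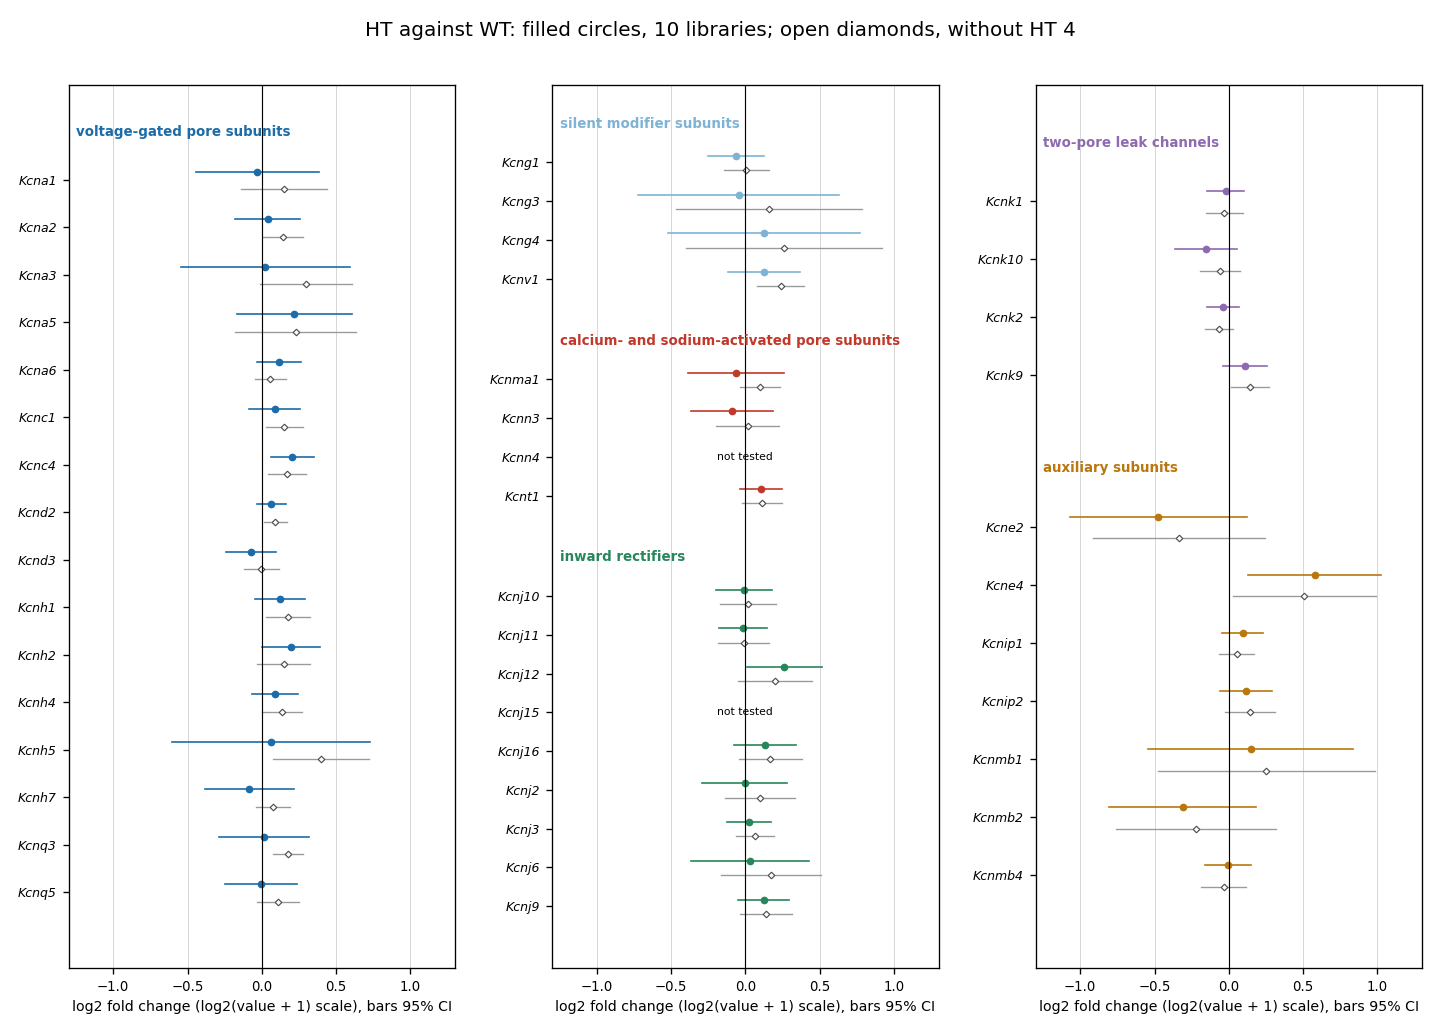
Log2 fold change of HT against WT with its 95% confidence interval for Kcn genes, by role. Filled circles use 10 libraries and open diamonds leave out HT 4. The genes are 44 of those named in the text. With 10 libraries 25 of the 42 tested points lie above 0 (46.4% of all genes), and 34 do without HT 4 (49.6%). Some of these genes were named for a small p or an extreme log2 fold change, so the 2 counts do not stand for all members.

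The 4 members with a small unadjusted p come from different families. They were picked by that p, so the exact permutation p of each, from the same values, is not independent support. *Kcnc4* (ENSMUSG00000027895, chr3:107438303-107459552), a fast-inactivating channel of the Shaw family, had normalised counts of 1211, 1311, 1424, 1547 and 1482 in HT 1 to 5. WT 1 to 5 had 1245, 1147, 1203, 1203 and 1231. HT 1 lay inside the WT range and the other 4 HT libraries above it. This gave a log2 fold change of 0.21 ± 0.067 (SE) with an unadjusted limma p of 0.00884 and an exact permutation p of 0.0238, and it was 0.17 without HT 4. *Kcne4* (chr1:78816758-78820028), a single-pass subunit that inhibits voltage-gated channels, is expressed at a low level. Its counts were 40.6, 33.3, 54.3, 52.0 and 37.3 in HT 1 to 5. Values in the WT libraries were 23.3, 38.7, 22.4, 29.4 and 30.6. WT 2 overlapped the HT range and the other 4 WT libraries lay below it. This was the highest log2 fold change of the 79 tested members, 0.58 ± 0.21 (SE), with an exact permutation p of 0.0238, and 0.51 without HT 4.

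The other two of these genes lost the unadjusted p under 0.05 when single libraries, HT 4 among them, were left out. *Kcnj12* (chr11:61022564-61071131), a strong inward rectifier that holds the resting potential, had counts of 146, 167, 166, 212 and 211 in HT 1 to 5. The 5 WT mice gave 146, 141, 150.0, 145 and 163. HT 4 and HT 5 stood above all others, HT 2 and HT 3 just above the WT range and HT 1 inside it. Its log2 fold change was 0.26 ± 0.12 (SE), with an exact permutation p of 0.0397. Without HT 4 it was 0.20 with an unadjusted limma p of 0.106. *Kcnh2* (chr5:24319589-24351604), the ERG channel that also repolarises the heart, had counts of 999.8, 1045, 1206, 1258 and 965 in HT 1 to 5. In the WT group they were 964, 790.0, 991, 995 and 1025. HT 2, HT 3 and HT 4 were above every WT library and WT 2 was below every other library. The log2 fold change was 0.20 ± 0.091 (SE) with an exact permutation p of 0.0952, and 0.15 without HT 4, where the unadjusted limma p was 0.0991. Without WT 2 it was 0.13. HT 4 was the highest of the 10 libraries for *Kcnc4*, *Kcnj12* and *Kcnh2*.

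**Figure D3:**
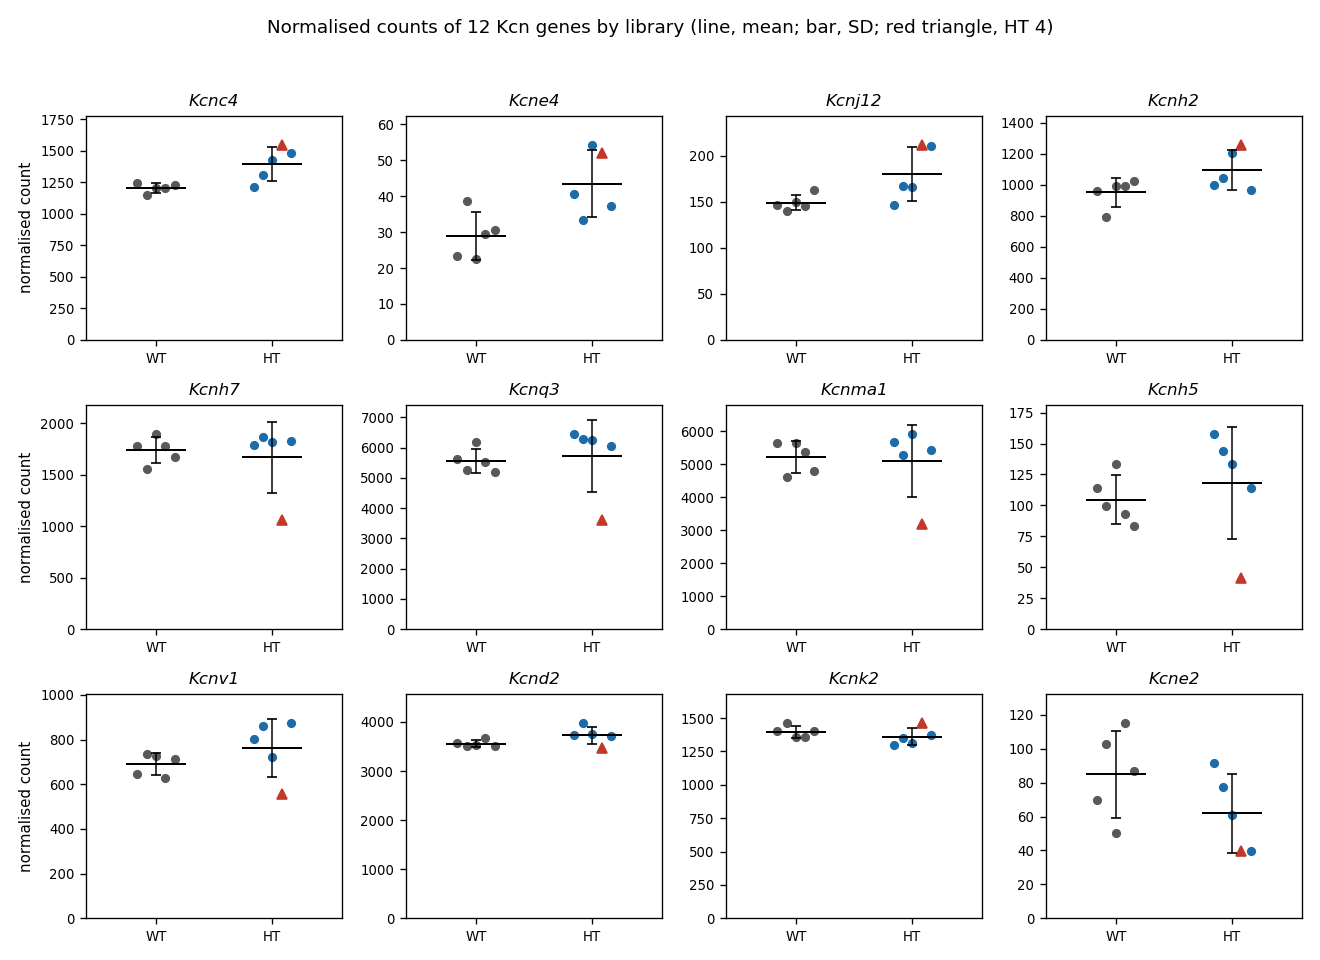
Normalised read counts of 12 Kcn genes in each library, with the mean (line) and SD (bar) of each group and vertical axes that start at 0. The red triangle is HT 4, which is the highest library for *Kcnc4*, *Kcnj12* and *Kcnh2* and the lowest for *Kcnh7*, *Kcnq3*, *Kcnma1*, *Kcnh5*, *Kcnv1* and *Kcnd2*.

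HT 4 departed from the other mice for many members. The summed normalised count of the 81 members was 67430 in HT 4, between 82266 and 83544 in the other 4 HT libraries, and between 74566 and 80880 in WT. HT 4 was the lowest of the 10 libraries for 31 of 79 members (39.2%), against 27.5% of all genes. The median log2 deviation of the members from their gene means was -0.13 in HT 4 and between -0.049 and 0.086 in the other libraries. Transcript length moved with this: 60 members were longer than the median gene tested, and the median deviation in HT 4 was -0.16 among them and -0.020 among the other 19. Across the members the Spearman correlation of the HT 4 deviation with length was -0.33 (79 genes of 1 library, which share its depth). Markers of brain regions had a mean log2 deviation in HT 4 of -0.39 for the 8 forebrain genes and 0.45 for the 9 measured genes of cerebellum and hindbrain. In the other libraries the forebrain mean ran from -0.069 to 0.16 and the hindbrain mean from -1.33 to 0.57. HT 4 thus lay below the others for the forebrain mean and inside their range for the hindbrain mean. By single hindbrain genes, HT 4 was the highest of the 10 libraries for *En1*, *En2*, *Pax2*, *Barhl1*, *Zic1* and *Zic2*, and not for *Hoxb3*, *Hoxb4* or *Hoxa5*. The summed count of the hindbrain genes was 8113 in HT 4 and between 5930 and 7531 in WT. The neuronal markers averaged -0.12 in HT 4 (-0.027 to 0.089 in the other libraries) and the 10 markers of the oligodendrocyte lineage 0.32 (-0.23 to 0.20), so both lists lay outside the others there. The neuronal markers went to both sides. HT 4 was the highest of the 10 libraries for *Tubb3*, *Stmn2*, *Gap43* and *Nefl*, the lowest for *Map2*, *Syt1*, *Rbfox3* and *Dcx*, and in between for *Snap25* and *Eno2*. The part of length, region or cell type in the member values was not tested.

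**Figure D4:**
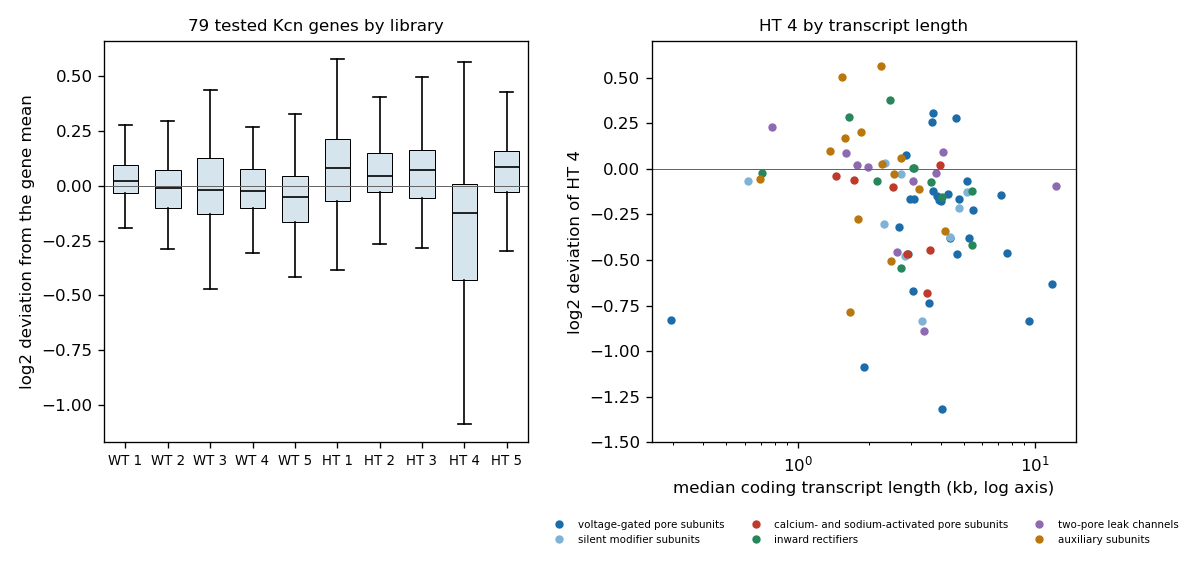
Left, log2 deviation of the 79 tested Kcn genes from their gene means in each library (box, quartiles; line, median; whiskers to the last value within 1.5 box lengths, points beyond them not drawn). Right, deviation of HT 4 against transcript length on a log axis, 1 point per gene, coloured by role. The median in HT 4 is -0.13, below that of every other library.

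Without HT 4 the members leaned higher in HT, though none passed the threshold. With 4 HT and 5 WT libraries, 0 of 79 had a limma adjusted p under 0.05 (0.0118% of all genes), and the smallest was 0.447. At an unadjusted p under 0.05 there were 12 members, or 15.2%, against 8.38% of all genes, and all 12 were higher in HT (4.69% of all genes), with 0 lower (3.69%). Among them were *Kcnq3*, *Kcnv1*, *Kcnc4*, *Kcnh5*, *Kcnc1*, *Kcnh1*, *Kcnd2*, *Kcnk9*, *Kcne4*, *Kcna2* and *Kcnh4*, and 2 of the 12, *Kcnc4* and *Kcne4*, were among the 4 found with 10 libraries. In all, 62 members had a log2 fold change above 0 and 17 below (78.5% higher, against 49.6% of all genes), with a median of 0.090. The summed member count was 82821 ± 586 (SD, n = 4) in HT without HT 4 and 78045 ± 2873 (SD, n = 5) in WT. When a trend on length and GC content was also removed from each library, 12 members had such a p, 10 of them shared, and the median was 0.080. The share of all genes at such a p is not given for that fit, so its count of members has no background. Cell type markers moved too in this comparison: 9 of 10 neuronal markers were higher (median 0.068) and 0 of 10 microglial markers (median -0.30), where with 10 libraries these were 6 and 0. Their part in the member values was not tested. Only *Kcnd2* had separate groups without HT 4 (1.27% of members), with HT above WT. Over all genes this share was 2.96%, with 1.76% above and 1.2% below.

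The voltage-gated pore subunits formed the largest group, with 28 members. With 10 libraries 18 were higher (46.4% of all genes) and 10 lower. Without HT 4, 27 were higher (49.6% of all genes) and 1 lower, and 9 of the 28 were higher at an unadjusted p under 0.05 (4.69% of all genes). *Kcnq3* (chr15:65986387-66286642) encodes a subunit of the M-channel, which restrains repetitive firing, and had HT 4 far below the rest. *Kcnq3* counts were 6447, 6298, 6242, 3603 and 6044 in HT 1 to 5. WT libraries held 5639, 5256, 6169.8, 5528 and 5178. Of the HT libraries other than HT 4, 3 were above every WT library. Its log2 fold change moved from 0.015 ± 0.14 (SE) to 0.17 ± 0.048 (SE) without HT 4 (0.11 with the length and GC trend removed too). The limma adjusted p without HT 4 was 0.447 (0.447 to 1.00 over all alternatives). The exact permutation p was 0.976 with 10 libraries and 0.0238 without HT 4. *Kcnq5*, a further M-channel subunit, had a log2 fold change of -0.0056, and 0.11 without HT 4.

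The *Kcnh* genes encode the EAG, ERG and ELK channels. With 10 libraries 6 of 8 were higher (46.4% of all genes), and 8 of 8 without HT 4 (49.6%). *Kcnh5*, an EAG channel with 25.7 normalised counts per kb in WT, had counts of 158, 144, 133, 41.6 and 114 in HT 1 to 5. WT 1 to 5 had 114, 99.5, 134, 92.7 and 83.0. HT 4 was far below every other library, HT 1 and HT 2 were above the WT range and HT 3 at its top. The log2 fold change was 0.063 ± 0.31 (SE), and 0.40 ± 0.15 (SE) without HT 4. The exact permutation p was 0.905 with 10 libraries and 0.0397 without HT 4. *Kcnh1*, the other EAG channel, averaged 599.5 ± 47.2 counts in HT against 550.3 ± 46.0 in WT (SD, n = 5), with a log2 fold change of 0.12, and 0.18 without HT 4. *Kcnh7*, an ERG channel, had counts of 1057 in HT 4 and 1789 to 1866 in the other HT libraries, against 1559.8 to 1895 in WT. This gave a log2 fold change of -0.085, and 0.073 without HT 4.

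The A-type channels of the *Kcnd* family open and inactivate fast and shape dendritic signals. *Kcnd2* (chr6:21215503-21729805) had the tightest WT values of the 81 members, with a coefficient of variation of 1.95%. Its counts were 3733, 3974, 3749, 3471 and 3709 in HT 1 to 5. Values in the WT libraries were 3568, 3511, 3528, 3679 and 3519. HT 4 was below every WT library and the other 4 HT libraries above every WT library. Its log2 fold change was 0.065 ± 0.046 (SE) with 10 libraries, with an exact permutation p of 0.103. Without HT 4 these were 0.090 ± 0.036 (SE) and 0.0159. Groups that are separate give a small permutation p by themselves, so the p without HT 4 adds nothing to the separation. After removal of the length and GC trend too, the log2 fold change without HT 4 was 0.071 with an unadjusted limma p of 0.0932. *Kcnd3* averaged 2674 ± 321 counts in HT against 2799 ± 148 in WT (SD, n = 5). The log2 fold change was -0.073, and -0.0025 without HT 4.

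Delayed rectifiers of the *Kcna*, *Kcnb* and *Kcnc* families repolarise the axon and soma. *Kcna6* was the most abundant *Kcna* gene per kb (630.2 ± 26.5, SD, n = 5), and 39.2% of the 31-base words of its transcripts also occur in another gene, so that its estimate depends on how reads were divided. It averaged 3181 ± 334 counts in HT against 2931 ± 123 in WT (SD, n = 5). *Kcna1* and *Kcna2*, the axonal channels of myelinated fibres, had log2 fold changes of -0.030 and 0.040, and of 0.15 and 0.14 without HT 4. *Kcnc1*, which serves fast-spiking cells, had a log2 fold change of 0.085, and of 0.15 without HT 4. Intervals were wide enough for each of these genes to include 0 with 10 libraries.

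Of the 9 silent modifier subunits, 6 were higher (46.4% of all genes) and 3 lower with 10 libraries, and 8 were higher without HT 4 (49.6%). *Kcnv1* (chr15:45106284-45114920) had counts of 801, 858, 719.8, 554 and 873 in HT 1 to 5. The 5 WT mice gave 644, 736, 725, 627 and 712. HT 4 was the lowest library, and HT 1, HT 2 and HT 5 were above every WT library. This gave a log2 fold change of 0.13 ± 0.11 (SE), and 0.24 ± 0.073 (SE) without HT 4. The limma adjusted p without HT 4 was 0.447 (0.447 to 1.00 over all alternatives). The exact permutation p was 0.341 with 10 libraries and 0.0317 without HT 4. *Kcng1* had 350.1 ± 21.5 normalised counts per kb in WT (SD, n = 5), while *Kcng3* and *Kcng4* had only 6.03 and 5.64 per kb.

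The large-conductance calcium-activated channel joins the *Kcnma1* pore with a beta subunit of the *Kcnmb* family, which sets its calcium sensitivity and inactivation. The promoters of these 4 genes are shown because the levels of the genes differ so much in the same brains: per kb of transcript, WT held 1489 normalised counts of *Kcnma1*, 601 of *Kcnmb4*, the neuronal beta subunit, 95.02 of *Kcnmb2* and 3.16 of *Kcnmb1*, the beta subunit of smooth muscle. Each window runs from 250 bases before to 50 after the annotated start in RefSeq (GRCm38.p6), 5′ to 3′ on the strand of the gene. Capitals mark GGGCGG, the core of the GC box, or TATAAA, on either strand, with overlapping matches counted separately.
*Kcnma1*, chr14:24004156-24004455, minus strand: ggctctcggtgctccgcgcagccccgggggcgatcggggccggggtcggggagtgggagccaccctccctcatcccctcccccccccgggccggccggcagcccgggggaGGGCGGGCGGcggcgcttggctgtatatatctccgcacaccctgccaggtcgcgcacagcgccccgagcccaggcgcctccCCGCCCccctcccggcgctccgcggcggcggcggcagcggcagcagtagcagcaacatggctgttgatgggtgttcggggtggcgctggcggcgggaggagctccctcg
*Kcnmb4*, chr10:116473474-116473773, minus strand: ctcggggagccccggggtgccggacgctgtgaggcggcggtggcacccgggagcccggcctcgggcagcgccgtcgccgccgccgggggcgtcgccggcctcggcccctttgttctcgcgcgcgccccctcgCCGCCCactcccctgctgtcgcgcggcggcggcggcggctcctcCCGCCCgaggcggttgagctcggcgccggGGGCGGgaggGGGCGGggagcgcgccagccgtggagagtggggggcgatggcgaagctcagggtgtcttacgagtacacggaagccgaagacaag
*Kcnmb2*, chr3:31902453-31902752, plus strand: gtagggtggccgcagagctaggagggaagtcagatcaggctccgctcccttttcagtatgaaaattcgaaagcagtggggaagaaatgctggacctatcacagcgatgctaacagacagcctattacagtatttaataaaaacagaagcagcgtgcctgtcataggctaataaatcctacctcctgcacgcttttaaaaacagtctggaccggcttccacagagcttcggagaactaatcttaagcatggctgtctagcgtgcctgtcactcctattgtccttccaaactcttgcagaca
*Kcnmb1*, chr11:33962763-33963062, plus strand: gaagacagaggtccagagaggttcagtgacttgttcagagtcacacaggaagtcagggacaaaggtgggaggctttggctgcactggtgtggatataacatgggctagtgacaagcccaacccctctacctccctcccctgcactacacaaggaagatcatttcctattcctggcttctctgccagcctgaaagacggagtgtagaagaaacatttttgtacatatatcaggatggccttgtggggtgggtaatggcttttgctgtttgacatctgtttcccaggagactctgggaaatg

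The 2 abundant genes had 36 (*Kcnma1*) and 48 (*Kcnmb4*) CpG dinucleotides in these 300 bases, with 3 and 4 matches to GGGCGG. *Kcnmb2* had 9 CpG and *Kcnmb1* 1, with 0 matches each, and TATAAA was in 0 of the 4 windows. Over the 82 windows found for 58 of the 81 members, 51.2% held GGGCGG, against 35.7% of all 32851 windows, and 4.88% held TATAAA, against 13.6%. The full set of windows covers 27025 genes and was not limited to genes measured here, so it is not a matched background. The median number of CpG was 9.5 in the member windows and 7 in all windows. With the window that held the most CpG taken for each gene, the median was 18.5 for the 34 genes with at least 100 normalised counts per kb in WT and 9.5 for the 24 below that, with ranges of 3 to 48 and 1 to 49 that overlap. A gene with several windows has more chances of a high count, and more of those genes had at least 100 per kb, which widens this gap. All these counts are descriptions of letters in a window, not of binding.

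The 7 tested calcium- and sodium-activated pore subunits were counted with *Kcnu1*, a related channel gated by pH and voltage. With 10 libraries 4 were higher (46.4% of all genes) and 3 lower, and 6 were higher without HT 4 (49.6%). *Kcnma1* (chr14:23289431-24014491) had counts of 5671, 5269.9, 5908, 3169.9 and 5426 in HT 1 to 5. In the WT group they were 5644, 4618, 5639, 5357 and 4785. HT 4 stood below every other library, and the other HT libraries lay in or above the upper part of the WT range. Its log2 fold change was -0.062 ± 0.15 (SE), with a 95% interval of -0.38 to 0.26, and 0.10 without HT 4. *Kcnmb4* averaged 816 ± 59.1 counts in HT against 821 ± 68.6 in WT (SD, n = 5), and *Kcnmb2* 195 ± 69.1 and 236 ± 51.7. A share of 33.4% of the 31-base words of *Kcnmb4* occurs in another gene. *Kcnn3*, a small-conductance channel that carries the afterhyperpolarisation, had a log2 fold change of -0.091, and 0.015 without HT 4. *Kcnt1*, the sodium-activated channel, averaged 2618 ± 159 in HT against 2439 ± 198 in WT (SD, n = 5), for a log2 fold change of 0.10 ± 0.065 (SE).

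Among the 11 tested inward rectifiers 7 were higher (46.4% of all genes) and 4 lower, and 9 (49.6%) and 2 without HT 4. *Kcnj11*, a pore of the ATP-sensitive channel, had 611 ± 26.3 per kb in WT (SD, n = 5) with the median transcript length and 137 with the longest. The G protein-gated subunits *Kcnj3*, *Kcnj6* and *Kcnj9*, which carry inhibitory transmitter signals, stood at 285, 110.0 and 170.3 normalised counts per kb in WT. Their log2 fold changes were 0.022, 0.033 and 0.12, and each interval included 0. A share of 30.2% of the 31-base words of *Kcnj3* occurs in another gene, so that its estimate depends on how reads were divided. *Kcnj10* and *Kcnj16*, which together buffer potassium in glia, stood at 258 and 57.2 per kb. *Kcnj10* had counts of 1462, 1373, 1333, 1271 and 1451 in HT 1 to 5. Against these, WT mice had 1556, 1404, 1355, 1562 and 1102. The HT values lay inside the WT range in all 5 libraries, and the log2 fold change was -0.0094 ± 0.088 (SE), and 0.019 without HT 4. Markers of astrocytes and radial glia were likewise spread to both sides, with 6 of 10 higher and 4 lower, and 3 higher and 7 lower without HT 4.

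The leak channels of the *Kcnk* family, whose subunits carry tandem pore domains, were the only role group with more members lower than higher under both comparisons. With 10 libraries 4 were higher and 6 lower, where 46.4% of all genes were higher, so this count was near the share of all genes. Without HT 4, 3 were higher and 7 lower, where 49.6% of all genes were higher. *Kcnk2*, gated by stretch and lipids, had 875 ± 26.7 per kb in WT (SD, n = 5). Its counts were 1298, 1350.4, 1314, 1460.3 and 1373 in HT 1 to 5. WT libraries held 1403, 1461, 1360.3, 1354 and 1402. HT 4 was the highest of the HT libraries, and 3 of the other 4 were below the WT range. The log2 fold change was -0.039 ± 0.050 (SE), and -0.065 without HT 4. *Kcnk10*, a relative of *Kcnk2*, had a log2 fold change of -0.16, and -0.061 without HT 4. *Kcnk9*, an acid-sensitive leak channel, averaged 3616 ± 236 counts in HT against 3364 ± 304 in WT (SD, n = 5), for a log2 fold change of 0.11, and 0.14 without HT 4 (unadjusted limma p 0.0311). It was the member of this group at an unadjusted p under 0.05 there, and with the length and GC trend removed too its value was 0.077 (unadjusted limma p 0.174). Without WT 2 it was 0.059. *Kcnk1*, a weakly conducting member, had a log2 fold change of -0.021 with a 95% interval of -0.14 to 0.10.

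Of the 14 auxiliary subunits, counted with *Kcnrg*, a soluble regulator of voltage-gated channels, 7 were higher (46.4% of all genes) and 7 lower. Without HT 4 these were 9 (49.6%) and 5. The *Kcnip* genes, whose products bind *Kcnd* channels, were higher in 4 of 4 with and without HT 4 (46.4% and 49.6% of all genes). Their 10-library log2 fold changes lay between 0.082 and 0.12, none at an unadjusted p under 0.05. *Kcnip2* averaged 1318 ± 148 counts in HT against 1213 ± 90.8 in WT (SD, n = 5), for a log2 fold change of 0.12 ± 0.081 (SE). *Kcne2* (chr16:92292389-92298129), a subunit strongly expressed in choroid plexus epithelium, had the lowest log2 fold change of the 79 tested members, -0.47 ± 0.28 (SE), and -0.34 without HT 4. Its counts were 91.8, 77.4, 60.7, 39.6 and 39.6 in HT 1 to 5. WT 1 to 5 had 69.5, 103, 50.3, 115 and 86.9. The groups overlapped widely, and the exact permutation p was 0.175. Beside this, 7 of 8 choroid plexus markers were lower in HT, 5 of them at an unadjusted limma p under 0.05 (1.93% of all genes), and without HT 4 again 7 of 8, 6 of them at such a p (3.69%), with 1 higher at such a p (4.69%). Their summed counts ran from 8592 to 11633 in HT and from 12363 to 16272 in WT. No marker of this list was at 0, and the part of choroid plexus content in the *Kcne2* values was not tested.

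Genes that act with potassium channels were compared in the same fit, where 46.4% of all genes were higher with 10 libraries and 49.6% without HT 4. For the 4 HCN channels, which carry the pacemaker current, 3 were higher and 1 lower, with and without HT 4. Of the 13 tested partner proteins, such as scaffolds and accessory subunits, 10 were higher and 3 lower, 0 at an unadjusted p under 0.05, and without HT 4, 9 were higher and 4 lower, with 4 higher at such a p (4.69% of all genes): *Lgi1*, *Lrrc55*, *Dpp10*, an accessory subunit of *Kcnd* channels, and *Adam22*. With the length and GC trend removed too, *Dpp10* went from 0.10 to 0.030 (unadjusted limma p 0.629). Of the 10 transporters that keep the potassium and chloride gradients, 7 were higher and 3 lower, with and without HT 4. *Slc12a5*, the neuronal exporter of potassium and chloride, had counts of 8378, 9004, 10041, 10624 and 10393 in HT 1 to 5. Values in the WT libraries were 8478, 8215, 8617, 8125 and 8640.0. This gave a log2 fold change of 0.20 ± 0.064 (SE) with 10 libraries, with an exact permutation p of 0.0317 and a limma adjusted p of 1.00 (0.438 to 1.00 over all alternatives), and 0.16 without HT 4.

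Many members lie next to each other in the genome, and neighbours could be close or far apart in level. *Kcna1* lies 61.9 kb from *Kcna6* and 105.0 kb from *Kcna5* on chromosome 6. *Kcna1*, *Kcna5* and *Kcna6* had 49.0, 32.8 and 630.2 normalised counts per kb in WT. *Kcna2* and *Kcna3* are 63.1 kb apart on chromosome 3, at 367 and 104 per kb. *Kcnj9* and *Kcnj10* are 11.9 kb apart on chromosome 1, at 170.3 and 258. The inward rectifiers *Kcnj2* and *Kcnj16*, 38.2 kb apart on chromosome 11, were close at 50.2 and 57.2 per kb. *Kcnip1* and *Kcnmb1* overlap on chromosome 11, at 796 and 3.16. Models of another gene overlap 37 members on the opposite strand and 17 on the same strand, where the division of reads between genes adds uncertainty.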

How the data were processed

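Poly-A RNA (RIN above 7) from the whole brain of 10 male mice at postnatal day 3 was sequenced as stranded paired-end libraries. The authors quantified reads against GRCm38 with Salmon 1.1.0 with a GC bias correction, imported them with tximport, and deposited a signal value per gene and library: an estimated read count divided by the DESeq2 1.30.1 size factor of the library. Whole reads were not recovered, so count tests were not run, and raw depth was not estimated, since the deposited values are already scaled. The annotation release and low-count filter are not given in the sources used here.

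Values were analysed as log2(value + 1), which understates changes of low genes, in R 4.3.3 with limma 3.58.1. Genes with a mean of at least 10 were tested (17020, 1424 left out) by limma-trend with robust empirical Bayes, no covariate. Tests were two-sided, p-values were adjusted by Benjamini and Hochberg across the 17020 genes, and the threshold was 0.05. Single genes were also tested by a two-sided exact permutation test over the 252 assignments of the libraries (126 without HT 4). The fit was checked on simulated data. Groups came from the sample labels. Levels were divided by the median length of a gene's protein-coding transcripts in GENCODE M21. Sequences are from RefSeq.

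Named genes were *Arid1b*, the most abundant member of each subfamily, the members with the smallest p with and without HT 4, the highest and lowest log2 fold change, members whose groups did not overlap, well-studied members, and genes of the partner lists. Some genes that this rule selects are not reported here; they stay in the counts over members. The members, the gene lists and this rule were chosen with earlier results of these data known.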

Additional observations from a re-analysis of the deposited data

Results flagged for a closer look

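A library far from the others of its group was found for 7 of the 60 groups checked (29 named Kcn genes and the summed count of the members, in HT and in WT). About 1 in 20 groups, or 3 here, is reached by chance. The value given is the gap to the nearest library divided by the range of the group, for which the limit with 5 libraries is 0.71.

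HT 4 was the low library in 4 of the 7. The ratio was 0.921 for the summed count of the members (67430, against at least 82266 in the other HT libraries), 0.905 for *Kcnh7* (1057, against at least 1789), 0.858 for *Kcnq3* (3603, against at least 6044) and 0.767 for *Kcnma1* (3170, against at least 5270). The remaining 3 were in WT. *Kcnmb4* was high in WT 5 (941, against at most 805 in the other WT libraries, ratio 0.784). *Kcna6* was low in WT 4 (2715, against at least 2949, ratio 0.751), and *Kcnh2* was low in WT 2 (790.0, against at least 964, ratio 0.738).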

How the results depend on the processing

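The count of members past the threshold was 0 in each of the 21 alternatives run. The count at an unadjusted p under 0.05 was 4, and moved to 2 with a mean of at least 100 and with equal totals, and to 12 without HT 4 with and without the length and GC trend removed. Leaving out single libraries gave 2 to 12 (7 without HT 1, 2 without WT 1 or WT 4). The share of all genes at such a p is given only with 10 libraries (3.41%) and without HT 4 (8.38%). The median log2 fold change kept its sign, from 0.0087 (without HT 2) to 0.090 (without HT 4), and it also moved by over 1.5 times with array weights (0.069), with the length and GC trend removed (0.046), and without HT 1 (0.0089), HT 5 (0.010), WT 2 (0.015), WT 3 (0.045) or WT 5 (0.015). *Arid1b* passed the threshold with array weights (-0.60), with the length and GC trend removed (-0.66) and with that and HT 4 left out (-0.59), and ranged from -0.73 to -0.57 when 1 library was left out, passing only without HT 4. The median WT level per kb was 157, 135 with the longest transcript and 273 with the longest coding sequence.

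Of 607 values for 29 named genes, 558 kept their sign, 49 changed it, and 0 passed the threshold. The sign was unchanged for 15 genes. It became positive with array weights for *Kcna1* (0.061), *Kcnh7* (0.038), *Kcnma1* (0.050) and *Kcnq5* (0.072), with quantile normalization for *Kcnj10* (0.0040) and *Kcnmb4* (0.00091), and with the length and GC trend removed for *Kcnj10* (0.021) and *Kcnq5* (0.022). With that and HT 4 left out it became positive for *Kcna1* (0.16), *Kcnd3* (0.018), *Kcnh7* (0.052), *Kcnj10* (0.00089), *Kcnma1* (0.096), *Kcnn3* (0.035) and *Kcnq5* (0.098). With single libraries left out, the genes whose sign changed ranged as follows: *Kcna1* from -0.13 to 0.15, *Kcna2* from -0.012 to 0.14, *Kcnh5* from -0.074 to 0.40, *Kcnh7* from -0.13 to 0.073, *Kcnj3* from -0.029 to 0.064, *Kcnj6* from -0.060 to 0.17, *Kcnj10* from -0.092 to 0.034, *Kcnk1* from -0.040 to 0.0022, *Kcnma1* from -0.12 to 0.10, *Kcnmb4* from -0.034 to 0.042, *Kcnn3* from -0.18 to 0.015, *Kcnq3* from -0.035 to 0.17 and *Kcnq5* from -0.049 to 0.11.

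Between HT and WT libraries of the same number, the correlation of deviations was 0.091, 0.084, 0.082, -0.10 and 0.093 for numbers 1 to 5. Between HT and WT libraries of different numbers it ran from -0.195 to 0.138. For every HT library except HT 4, the WT library of the same number gave the highest correlation. HT 4 correlated most with WT 5 (0.138). All these values were small, and whether the replicate numbers pair the mice was not tested. A fit with the replicate number as a block gave 0 members past the threshold, 4 at an unadjusted p under 0.05 and a median of 0.029. Raw depth was not estimated here, and with 5 against 5 mice a typical member had a 95% interval of 0.22 to either side.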
